A study of Glycine max and Glycine soja with 189 samples.

Results

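Soybean plants that had been moved from long day (LD) to short day (SD) for 5 days were compared with plants kept under SD throughout, just before dawn. The libraries are the 21 LD-SD and the 21 SD samples of the T1 time point, which make up 14 of the 63 groups of 3 samples in the series. These 42 libraries were chosen by photoperiod and time point alone. The comparison asks which transcripts 5 short days had not yet brought to the SD level, and which they had carried past it.

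LD-SD plants grew under 16 h of light for 3 weeks and then under 10 h of light for 5 days. SD plants had 10 h of light and 14 h of dark from the start. Plants kept under LD, with 16 h of light and 8 h of dark, give the level from which the shift began, and 21 of their libraries at T1 were used for that purpose. T1 is 6:30, shortly before the lights came on, while T3 is 14:30 and T5 is 22:30.

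Each photoperiod had 3 samples, labelled A, B and C, of each of 7 genotypes. These were the cultivars Clark (*e1E2E3E4e5E7*) and Williams 82 (recorded as *E2*), 4 near isogenic lines (NILs) of Clark, and the wild soybean *Glycine soja*. The NILs differ from Clark at maturity loci, with *E1* in L65-3366, *e2* in L66-432, *e3* in L74-441, and *e3* with *E5* in L92-1195. They are called L65, L66, L74 and L92 below. All plants of a group come from 1 line.

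In the records the tissue is the first trifoliate, 26 days after planting, whereas the methods of the study describe whole shoots above the cotyledon at 3 weeks. The tissue is thus uncertain, and tissue markers could not be examined because the loci carry no names. No source states whether LD-SD and SD plants grew side by side, so a growth batch cannot be told apart from the photoperiod. In the study all genotypes flowered earlier under SD than under LD. Plants of the same age may thus also have differed in stage, which was not tested.

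Soybean flowers in response to short days. In the photoperiod pathway, phytochromes sense light, GIGANTEA links the circadian clock to the day-night cycle, and CONSTANS proteins act on genes of the *FLOWERING LOCUS T* (*FT*) family, whose products are the florigens that move from leaf to shoot tip. In soybean, *E1* encodes a repressor of flowering that lowers *FT* expression in long days, *E2* is a *GIGANTEA* homolog, and *E3* and *E4* encode phytochrome A proteins.

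Levels are given as RPKM, the reads on a transcript scaled to its length and to the mapped reads of the library. Mapped reads, recovered from the deposited RPKM, ranged from 5.01 M to 13.4 M per library in LD-SD and from 4.92 M to 12.5 M in SD. In 1 LD-SD library, replicate C of L66, only 68.4% of the recorded reads mapped. The lowest share in SD libraries was 81.0%. The counts and the genes of the photoperiod pathway were also fitted without it. None of the 42 libraries went against its genotype in a check with 40 marker transcripts per pair of genotypes, in which Clark and L92 were not compared. Of the 21 LD libraries, 4 did, which were the replicates A of Clark, Williams 82, L65 and L66.

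Many transcripts differed between LD-SD and SD before dawn, but most by little. Of 60603 transcripts tested, 17497 (28.9%) passed the threshold of an adjusted p below 0.05, with 7998 (13.2%) higher and 9499 (15.7%) lower in LD-SD. The median change was 1.22-fold among the higher and 1.20-fold among the lower ones. A difference of at least 2-fold on the scale of log2(RPKM + 1) was found for 596 transcripts of 522 loci. Of these, 239 (0.394% of those tested) were higher and 357 (0.589%) lower in LD-SD. With a pseudocount of 0.1 RPKM in place of 1 the numbers were 755 and 1254, and without letter C 614 transcripts were at least 2-fold lower.

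The replicate letters bear on these counts. Within a photoperiod, samples of the same letter but of other genotypes deviated together from their group means (mean r = 0.204). The 21 libraries of a photoperiod are thus not fully independent. When the 3 letter means of LD-SD were set against the 3 of SD, 2853 transcripts (4.71%) still passed the threshold. The number was 9054 without letter A, 8799 without B and 20534 without C, and 19097 without the L66 library with few mapped reads.

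*GmFT2a* and *GmFT5a*, the florigen genes, were far below the SD level after 5 short days. *GmFT2a* (Glyma16g26660.1) had 0.657 to 12.1 RPKM in LD-SD libraries with a median of 3.96, against 10.6 to 32.3 RPKM in SD libraries with a median of 23.4. In LD libraries it had 0 to 0.435 RPKM, and 20 of these 21 held 3 reads or fewer. All but 1 of the LD-SD libraries lay below the lowest SD library. The mean in LD-SD was 18.8% of the SD mean, although it was already 22.1 times the LD mean.

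*GmFT5a* (Glyma16g04830.1) showed the same order, LD-SD between LD and SD. It had 1.23 to 28.6 RPKM in LD-SD libraries (median 13.5) and 30.9 to 72.8 RPKM in SD libraries (median 51.9), so that the groups did not overlap. LD libraries had 0 to 1.94 RPKM. The LD-SD mean was 26.8% of the SD mean. The lowest LD-SD value, 1.23 RPKM, came from the L66 library with few mapped reads.

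Both differences passed the threshold. *GmFT2a* was lower in LD-SD by a log2 difference of -2.30 (SE 0.146, limma adjusted p = 1.93e-13) and *GmFT5a* by -1.98 (SE 0.134, adjusted p = 8.51e-13). Each was lower in 7 of 7 genotypes, which gave an exact two-sided permutation p of 0.0156, the smallest that 7 sign flips allow. With replicate letters as units the adjusted p was 0.00396 for *GmFT2a* and 0.0015 for *GmFT5a*. Without the L66 library the log2 differences were -2.28 for *GmFT2a* and -1.89 for *GmFT5a*.

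**Figure D1:**
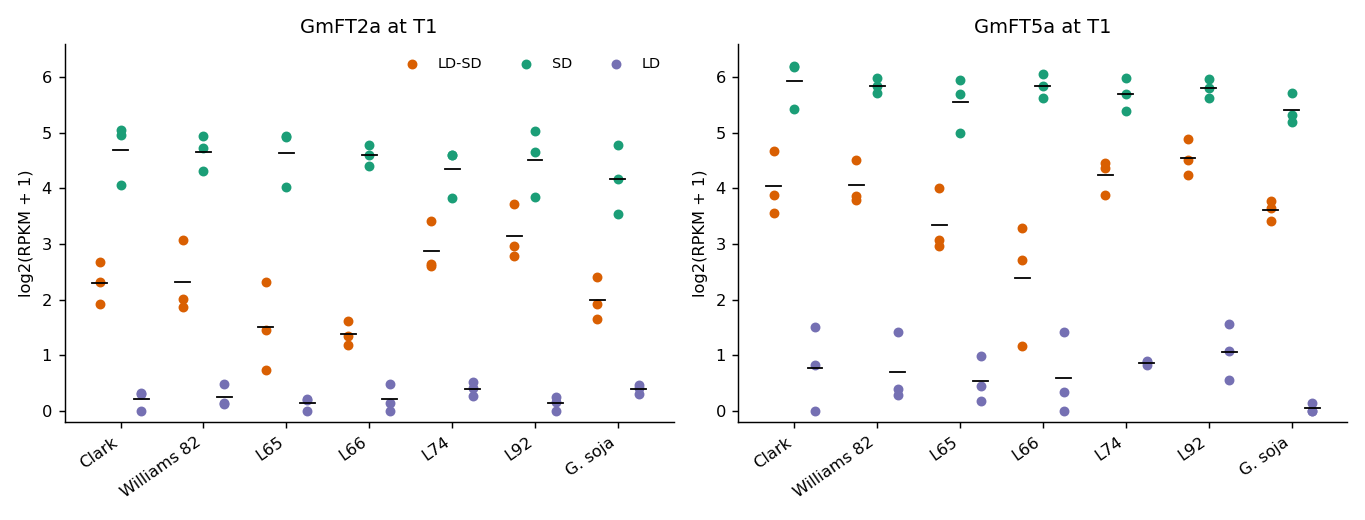
Expression of *GmFT2a* (left) and *GmFT5a* (right) at T1 in each library, as log2(RPKM + 1), by genotype, with LD-SD in orange, SD in green and LD in purple. Bars are means of 3 libraries. In every genotype the LD-SD mean lies between the LD and the SD mean.

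Relative to their level, the genotype means were more spread in LD-SD than under SD. For *GmFT2a* in LD-SD, L66 (1.63 ± 0.412 RPKM, SD, n = 3) and L65 (2.12 ± 1.69 RPKM) had the lowest means, and the lines with *e3*, L74 (6.64 ± 2.58 RPKM) and L92 (8.27 ± 3.36 RPKM), the highest. Under SD the means lay between 18.0 RPKM in *G. soja* and 26.0 RPKM in Clark. The SD mean was accordingly 14.3 times the LD-SD mean in L66 and 2.80 times in L92.

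*GmFT5a* followed the same order at both ends. Its LD-SD mean was 5.19 ± 3.79 RPKM in L66 and 9.79 ± 4.68 RPKM in L65, but 18.2 ± 3.92 RPKM in L74 and 22.8 ± 5.34 RPKM in L92. Under SD it was 56.7 ± 8.40 RPKM in L66 and 55.3 ± 6.67 RPKM in L92. The differences among genotypes did not pass the threshold over all transcripts, with an adjusted p of 0.80 for *GmFT2a* and 0.68 for *GmFT5a* in the limma F-test. The spread in LD-SD is therefore given as values only.

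Loci were at hand for 10 genes of the photoperiod pathway, and 9 had enough reads to be tested. In LD-SD 7 of them were lower, where 15.7% of all transcripts were, 0 were higher and 2 were not told apart from SD. Their median log2 difference was -0.21, beside -0.0029 for all transcripts tested. With replicate letters as units, 3 of the 9 passed the threshold, where 4.71% of all transcripts did, namely *GmFT2a*, *GmFT5a* and *GmCOL2a*.

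*GmCOL1a* and *GmCOL1b*, the *CONSTANS* homologs, were close to the SD level. *GmCOL1a* (Glyma08g28370.1) had 167 to 373 RPKM in LD-SD libraries (median 238), against 211 to 402 RPKM in SD libraries (median 282) and 23.0 to 115 RPKM in LD libraries. LD-SD and SD libraries overlapped widely, and only 6 LD-SD libraries lay below the lowest SD library. The log2 difference of -0.24 (SE 0.0878) passed the threshold in the fit of 42 libraries (limma adjusted p = 0.0348), but not in 6 of 18 other fits. Among these were letters as units (adjusted p = 0.27), and the fits without letter A (0.17) or B (0.30) and with all samples of the series (0.13). Without the L66 library it was -0.30 (adjusted p = 0.00265).

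*GmCOL1b* (Glyma18g51320.1) had 423 to 971 RPKM in LD-SD libraries (median 571) and 492 to 1082 RPKM in SD libraries (median 646). Its log2 difference of -0.17 (SE 0.0981) did not pass the threshold (limma adjusted p = 0.21). The LD libraries lay at 64.8 to 225 RPKM, below all those of the other photoperiods. *GmCOL1a* and *GmCOL1b* are a duplicated pair, and how reads that fit both were counted is not given in the sources used here.

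The phytochrome A genes had covered most of the way from the LD to the SD level. *GmPHYA3* (the *E3* gene, Glyma19g41210.1) had 2.90 to 6.84 RPKM in LD-SD libraries, 3.58 to 8.54 RPKM in SD libraries and 0.989 to 3.44 RPKM in LD libraries. *GmPHYA2* (the *E4* gene, Glyma20g22160.1) had 13.6 to 26.6 RPKM in LD-SD libraries, 17.7 to 29.9 RPKM in SD libraries and 5.37 to 16.5 RPKM in LD libraries. Each had a log2 difference of -0.19 between LD-SD and SD (limma adjusted p = 0.0112 for *GmPHYA3* and 0.00185 for *GmPHYA2*), which was not past the threshold with letters as units (adjusted p = 0.28 and 0.19) or without letter A (0.11 for both). Without letter B that of *GmPHYA3* was -0.08 (adjusted p = 0.45). The LD-SD mean was 85.5% of the SD mean for *GmPHYA3* and 87.5% for *GmPHYA2*, where the LD mean already stood at 40.3% and 47.1%. On the log2 scale, LD-SD had covered 82.1% of the distance from LD to SD for *GmPHYA3* and 82.0% for *GmPHYA2*.

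*GmGIa* and *E1*, which before dawn were higher under LD than under SD, had already come down. *GmGIa* (Glyma10g36600.3) had 0.490 to 2.00 RPKM in LD-SD libraries, 0.381 to 2.30 RPKM in SD libraries and 26.6 to 70.4 RPKM in LD libraries. LD-SD and SD were not told apart, with a log2 difference of 0.09 (SE 0.0696, limma adjusted p = 0.37), which was -0.02 without letter C (adjusted p = 0.91). *E1* (Glyma06g23026.1) was at 0 in 19 of 21 LD-SD libraries and in 19 of 21 SD libraries, and no library of either group held more than 2 reads. In LD libraries *E1* had 0.185 to 3.15 RPKM, with a median of 9 reads, and 3 of 21 held 3 reads or fewer. *E1* was the gene too low to be tested between LD-SD and SD.

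*GmCOL2a* and *GmCOL2b* were expressed at a very low level. *GmCOL2a* (Glyma13g07030.1) had a median of 2 reads in LD-SD libraries, with 0 to 8, a median of 8 reads in SD libraries, with 1 to 21, and a median of 4 in LD libraries. It was lower in LD-SD than in SD by a log2 difference of -0.41 (SE 0.0806, limma adjusted p = 1.98e-04). *GmCOL2b* (Glyma19g05170.1) had a median of 2 reads in LD-SD libraries, 4 in SD libraries and 9 in LD libraries. Its log2 difference of -0.21 (adjusted p = 0.0146) was lost when genotypes (adjusted p = 0.09) or letters (adjusted p = 0.26) were taken as units, and without letter A (0.16) or C (0.12).

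**Figure D2:**
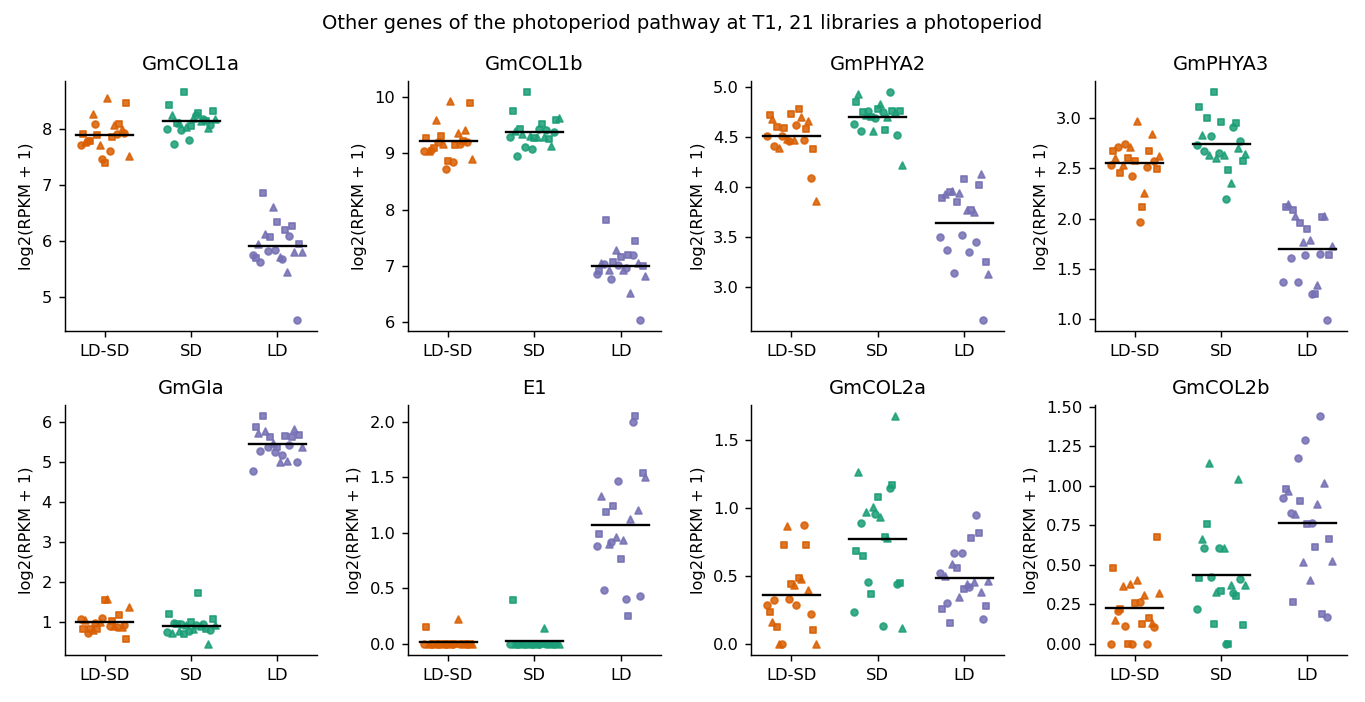
Expression at T1 of 8 other genes of the photoperiod pathway in 21 LD-SD (orange), 21 SD (green) and 21 LD libraries (purple), as log2(RPKM + 1), with circles, squares and triangles for replicates A, B and C and bars for means. The LD-SD points of *GmGIa* and *E1* lie with those of SD, and those of *GmCOL1a*, *GmCOL1b*, *GmPHYA2* and *GmPHYA3* overlap those of SD and lie slightly lower.

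To place LD-SD between its starting point and the SD level, the 63 libraries at T1 were fitted together. LD-SD differed from LD in 36482 of 60701 transcripts (60.1%), and SD from LD in 37974 (62.6%). These comparisons share the SD and LD-SD libraries with the first one. For each transcript, the position of LD-SD was taken as the percentage of the log2 distance from LD to SD, with 0 at LD and 100 at SD.

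Transcripts that short days lowered had come close to the SD level, whereas those that short days raised had covered less of the way. Among the 2438 transcripts at least 2-fold lower under SD than under LD, the median position of LD-SD was 95.2% (quartiles 80.9% and 106%). Among the 1698 at least 2-fold higher under SD it was 77.6% (quartiles 59.7% and 94.9%). For differences of at least 4-fold it was 97.3% over 492 transcripts lowered under SD and 72.3% over 174 raised under SD. Where LD and SD both had 2 RPKM or more it was 97.7% over 293 lowered and 81.5% over 110 raised transcripts.

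In 20 of 21 LD-SD libraries the median position was lower in the raised than in the lowered set at 2-fold, and replicate C of *G. soja* was the exception (84.3% and 77.2%). In the raised set, the median position was 66% to 93.6% in the 21 LD-SD libraries, against 85.6% to 119% in the 21 SD libraries. In the lowered set it was 77.2% to 104% in LD-SD libraries and 91.0% to 108% in SD libraries, and these overlapped widely. By genotype, LD-SD stood at 73.7% (L66) to 83.9% (*G. soja*) of the way in the raised set and at 91.6% (L66) to 98.7% (L65) in the lowered set. The ends of this scale are averages over all genotypes. In the raised set the SD libraries themselves stood at a mean of 93.2% in L66 and 104% in *G. soja*. The order of genotypes is therefore not that of their distance from their own SD level.

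Because the sets were chosen by the same SD and LD libraries that set the ends of the scale, they were also chosen from 2 letters and measured in the third. Measured in letter A the raised and lowered sets stood at 78.2% and 95.8%, and in letter B at 74.9% and 101%. In letter C no such contrast was seen, with 91.4% for the raised set and 91.3% for the lowered set. For differences of at least 4-fold, the values were 72.2% and 98.4% in letter A, 70.0% and 104% in letter B, and 82.9% and 94.4% in letter C. The contrast at 2-fold thus rests on letters A and B, while that at 4-fold was present in all 3.

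**Figure D3:**
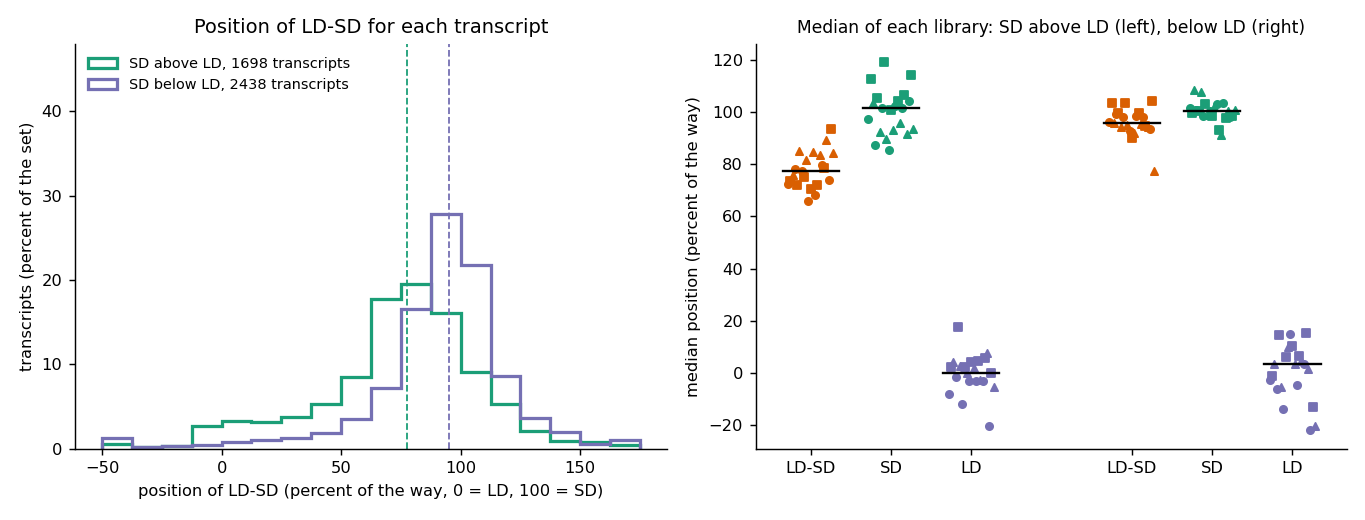
Position of LD-SD at T1 on the log2 way from LD (0) to SD (100). Left, percentage of transcripts by position for those at least 2-fold higher (1698, green) or lower (2438, purple) under SD than under LD, with dashed lines at the medians and values beyond the axis put in the end bins. Right, the median position of every library in both sets, in LD-SD (orange), SD (green) and LD (purple), with bars for the median and circles, squares and triangles for replicates A, B and C. LD-SD libraries lie mostly below SD libraries in the raised set and among them in the lowered set.

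The contrast was plainest among transcripts that were nearly silent under one photoperiod. In 175 transcripts of 151 loci with an SD mean at least 10 times the LD mean, the LD-SD mean was at a median of 15.6% of the SD mean, where LD stood at 3.78%. In 79 of them it was still under 10% of the SD mean, and 148 of 175 were called lower in LD-SD than in SD, where 15.7% of all transcripts were. The set was chosen by the SD libraries that also enter this call. *GmFT2a* and *GmFT5a* are among these transcripts. In the opposite set, 350 transcripts of 267 loci with an LD mean at least 10 times the SD mean, LD-SD was at a median of 7.65% of the LD mean, where SD stood at 6.11%.

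Of the 350 in that opposite set, 93 were called higher in LD-SD than in SD and 45 lower, beside 13.2% and 15.7% of all transcripts. This set, too, was chosen by SD libraries that enter the call, which favours calls of higher in LD-SD. When these sets were chosen in 2 letters and measured in the third, LD-SD stood at 21.4%, 11.3% and 47.0% of the SD level for letters A, B and C in the set raised under SD. In the set lowered under SD it stood at 6.15%, 7.57% and 8.54% of the LD level. Letter C again gave the highest level of the raised transcripts.

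All transcripts that differed between LD-SD and SD were then sorted by their place on the way from LD. Of 60220 transcripts in both fits, 6946 had an LD-SD mean between those of LD and SD, short of the SD level. In a further 3258 the LD-SD mean lay past the SD level, higher in 1529 of them and lower in the others. In 2539 transcripts the LD-SD mean lay farther from SD than the LD mean did, and 4675 differed from SD although SD and LD were not told apart. Of the 2539, LD-SD was told apart from LD in 570, and in the others it was not. Both contrasts behind these classes use the same SD libraries. Error in the SD mean therefore works against the class past the SD level and favours the classes between and farther. The sizes of the classes cannot be compared free of this, and they were not derived again from separate letters.

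Among the 596 transcripts with at least a 2-fold difference, 199 lay between LD and SD, of which 149 were lower and 50 higher in LD-SD. Past the SD level were 47, a class that the shared SD libraries again work against. In 274, or 140 lower and 134 higher ones, the LD-SD mean was farther from SD than the LD mean, and in 161 of these LD-SD was told apart from LD. The remaining 76 differed from SD while SD and LD were not told apart.

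Groups that did not overlap were rare. In 63 transcripts (0.104% of those tested) every LD-SD library was below every SD library, and in 12 (0.0198%) every LD-SD library was above. Of the 63, 34 lay between LD and SD and 27 had a mean farther from SD than that of LD. Of the 12, 5 were in each of these classes.

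None of the loci could be found in the gene table used as reference, so for the largest changes only identifiers can be given. Transcripts had to reach an average of 1 RPKM and to change in the same direction in 7 of 7 genotypes, and 7761 did so. The largest fall was that of Glyma15g06816.1, with 1.16 to 166 RPKM in LD-SD libraries (median 6.30) and 20.6 to 1247 RPKM in SD libraries (median 270). LD libraries had 1.97 to 340 RPKM (median 10.9). The log2 difference between LD-SD and SD was -4.44 (SE 0.427, limma adjusted p = 1.54e-09), and the groups overlapped, with 16 of 21 LD-SD libraries under the lowest SD library. The 3 *G. soja* libraries, at 107, 112 and 166 RPKM, were the highest of LD-SD.

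Glyma16g32540.1 had the second largest fall, and LD-SD and SD did not overlap. It had 0.194 to 1.21 RPKM in LD-SD libraries (2 to 11 reads), 6.12 to 21.6 RPKM in SD libraries (65 to 245 reads) and 0 to 0.637 RPKM in LD libraries (0 to 6 reads). The LD-SD mean was 3.38% of the SD mean, and the position of LD-SD was 8.60% of the way from LD. The fall, with a log2 difference of -3.40 (SE 0.0893), was called in 7 of 7 genotypes. LD-SD was nevertheless told apart from LD, with a mean 2.51 times that of LD (log2 difference 0.32, limma adjusted p = 6.36e-04). This transcript held 3 reads or fewer in 15 of 21 LD libraries and in 7 of 21 LD-SD libraries. *GmFT2a* had covered 46.2% and *GmFT5a* 61.0% of the log2 way. For all 3 transcripts the LD mean was under 1 RPKM, so these positions depend on the pseudocount of 1 RPKM.

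The largest rises went on average beyond both steady photoperiods at T1, although LD-SD and LD libraries overlapped. Glyma19g27060.1 had 27.2 to 955 RPKM in LD-SD libraries (median 372), against 3.84 to 127.9 RPKM in SD libraries (median 16.2) and 4.81 to 499 RPKM in LD libraries (median 67.9). Glyma18g08120.1 had 3.75 to 85.5 RPKM in LD-SD libraries (median 51.6), 0 to 12.9 RPKM in SD libraries (median 1.43) and 0 to 41.3 RPKM in LD libraries (median 7.53). In both, 20 of 21 LD-SD libraries were above every SD library, and the exception was the L66 library with few mapped reads. The log2 difference between LD-SD and SD was 4.09 (SE 0.321, limma adjusted p = 1.99e-11) for Glyma19g27060.1 and 4.03 (SE 0.288, adjusted p = 2.37e-12) for Glyma18g08120.1.

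The levels of these rising transcripts differed between replicate letters under LD. Glyma19g27060.1 had a median of 294 RPKM in LD libraries of letter A, 48.8 in letter B and 46.5 in letter C. In LD-SD the medians were 592, 361 and 253 RPKM for letters A, B and C, all above the SD medians of 10.7, 26.7 and 17.1 RPKM. What set letter A apart was not tested.

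**Figure D4:**
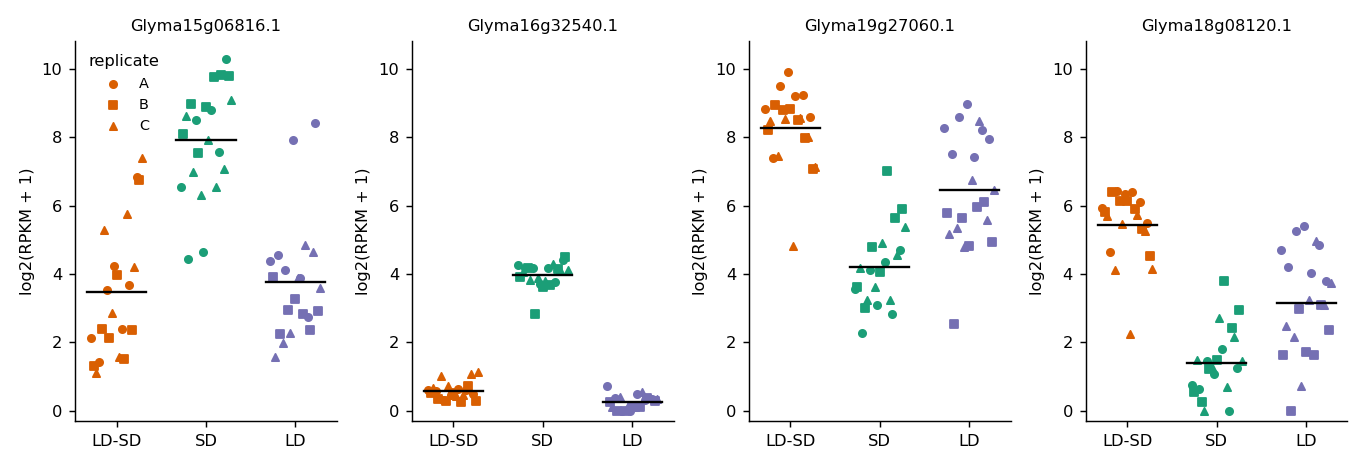
Expression at T1, as log2(RPKM + 1), of the 2 transcripts with the largest fall (left) and the 2 with the largest rise (right) in LD-SD (orange) against SD (green), with LD in purple. Points are single libraries, with symbols for replicates A, B and C, and bars are means. Glyma16g32540.1 shows no overlap between LD-SD and SD, and in each rising transcript 1 LD-SD library lies low.

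The time of day at which a transcript peaks under LD also went with the direction of the difference. LD samples at T1, T3 and T5 were used for this, which take no part in the contrast of LD-SD with SD. Of 1384 transcripts that varied at least 2-fold under LD and were highest at T3, in the afternoon, 454 (32.8%) were higher in LD-SD and 137 (9.90%) lower. Of 2396 highest at T1, before dawn, 364 (15.2%) were higher and 689 (28.8%) lower. Of 1823 highest at T5, 348 (19.1%) were higher and 527 (28.9%) lower. The 53974 transcripts that varied by less than 2-fold or without passing the threshold had shares of 12.6% higher and 14.4% lower. The remaining 1026 transcripts were below 0.1 RPKM under LD, with 2.34% higher and 34.3% lower. They passed the filter only through their level in LD-SD and SD libraries, which the contrast also uses. Their skew therefore cannot be set beside that of the other classes.

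Other libraries, taken at T3 and T5, show whether the differences before dawn were there at other times. LD-SD differed from SD in 33005 of 60826 transcripts at T3 (54.3%) and in 26027 of 61212 at T5 (42.5%). Of the 596 transcripts with at least a 2-fold difference at T1, 502 differed in the same direction at T3 and 24 in the opposite one. At T5 523 differed in the same direction and 1 in the opposite one. The direction was the same and past the threshold at all 3 times in 450.

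An LD-SD library of L92 at T5, which was matched to its group but not to a replicate letter, stood apart from the other 20. *GmGIa* had 49.8 RPKM in it and at most 3.91 RPKM in the others. What set it apart was not tested. Without it 534 of the 596 transcripts differed in the same direction at T5 and 463 at all 3 times. The size of the difference varied with time point in 31931 of 61240 transcripts (52.1%), and in 304 of the 596.

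**Figure D5:**
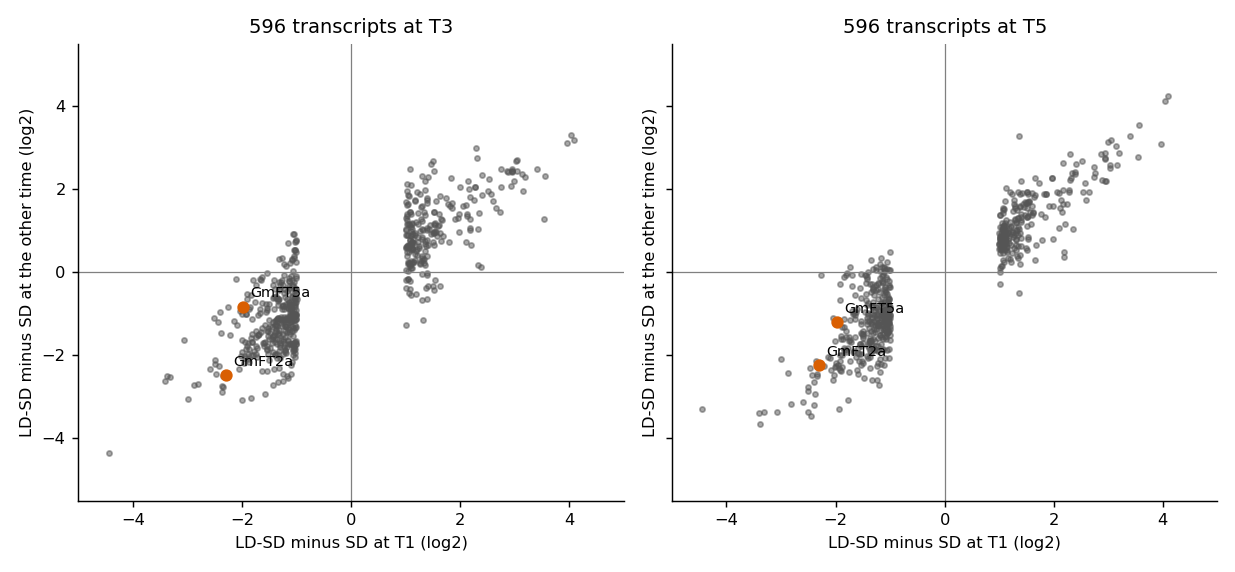
LD-SD minus SD at T1 (horizontal axis) against LD-SD minus SD at T3 (left) or T5 (right), in log2, for the 596 transcripts with at least a 2-fold difference at T1. The points come from other libraries on each axis. Most points lie at the lower left and the upper right, and *GmFT2a* and *GmFT5a* are marked.

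*GmFT2a* was far below the SD level at the other times too. Its mean was 7.06 RPKM in LD-SD and 34.3 RPKM in SD at T3, and 2.94 RPKM in LD-SD and 15.8 RPKM in SD at T5. The log2 differences of -2.30, -2.47 and -2.24 at T1, T3 and T5 did not differ beyond their error (limma F-test, adjusted p = 0.69). *GmFT5a* in contrast was farthest from SD before dawn. It had 13.2 RPKM in LD-SD and 19.6 RPKM in SD at T3, with a log2 difference of -0.82, and 6.27 RPKM in LD-SD and 14.3 RPKM in SD at T5, with a log2 difference of -1.21 (adjusted p = 6.61e-06 for the change with time point).

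*GmCOL1a* and *GmCOL1b* were above the SD level at T5. *GmCOL1a* was so at T3 too, with a log2 difference of 0.54 (limma adjusted p = 1.31e-06), whereas *GmCOL2a* was below it at T5, with one of -0.34 (adjusted p = 1.36e-04). At T5, in the dark, the median of *GmCOL1a* was 12.0 RPKM in LD-SD and 6.84 RPKM in SD, and that of *GmCOL1b* was 19.95 RPKM in LD-SD and 10.1 RPKM in SD. The log2 difference was 1.04 for *GmCOL1a* (limma adjusted p = 5.49e-05) and 1.12 for *GmCOL1b* (adjusted p = 1.64e-05), where those at T1 were -0.24 and -0.17. Without the L92 library, in which they had 112.9 and 180.6 RPKM, they were 0.87 (adjusted p = 1.50e-08) and 0.94 (adjusted p = 1.38e-09). The change with time point passed the threshold for both (adjusted p = 5.84e-08 and 4.04e-08). In LD samples at T5 the medians were 79.5 RPKM for *GmCOL1a* and 162 RPKM for *GmCOL1b*.

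Few transcripts passed the threshold for a difference among genotypes in how far LD-SD was from SD. With 3 libraries in each group, smaller differences among genotypes may have been missed. The test across the 7 genotypes called 19 of 60603 transcripts (0.0314%), with 3386 at an unadjusted p below 0.05. The count was 3 without *G. soja*, 40 without a filter and 197 with a replicate block within each photoperiod. *G. soja* against the mean of the other 6 genotypes gave 154 transcripts (0.254%), of which 75 had opposite directions in *G. soja* and in the others.

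The 596 transcripts kept their direction in most genotypes. Their differences ran the same way in 596 of 596 in Clark and in 587 to 593 in the other cultivar and the NILs, but in 539 in *G. soja*. The median size along that direction was 1.76 in Clark and 0.92 in *G. soja* on the log2 scale, and 1.21 to 1.51 in the others. *G. soja* differed from the other 6 genotypes by the test in 19 of these 596. These counts describe transcripts chosen by the mean over all genotypes.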

How the data were processed

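Reads were mapped by the authors to transcripts of Williams 82 with Bowtie and counted per transcript, and the deposited values are RPKM for 73320 transcripts at 54175 loci. The Bowtie version is not given in the sources used here, nor is a rule for reads that match several transcripts. Transcripts of a locus share reads and are not independent. Mapped reads were recovered from low RPKM values, of which 99.6% were whole reads within 0.02. A value of 3 reads was taken as the floor. An infinite value led to the omission of 1 transcript, and 1712 were at 0 in every sample. Sample groups and replicate letters came from the labels, and 1 library at T5 was matched to its group only.

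Values on the scale of log2(RPKM + 1) were fitted with limma 3.58.1 under R 4.3.3. This scale understates changes of low transcripts. The fit had a coefficient for each group of photoperiod and genotype, eBayes with trend, an average of 0.1 RPKM or more as the filter on low values, and Benjamini-Hochberg adjustment over all transcripts tested. Contrasts were averaged over the 7 genotypes. LD-SD and SD at T1 were fitted alone, and LD was added only to place LD-SD between LD and SD. F-tests covered genotypes and time points. Single genes were also tested by exact two-sided permutation of the signs of 7 genotype differences. The fits were tested on simulated data. Figures were drawn with matplotlib 3.10.9, and tables made with pandas 2.3.3 under Python 3.11.15.

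Named are 10 genes with a stated locus. By the rule given in the text, 2 transcripts with the largest falls and 2 with the largest rises were added. The comparison, the genes and the alternatives were chosen with earlier results of these data known. Of 54174 loci, 0 matched the reference gene table, so lists of genes by function or tissue and sequences could not be used. Labels name A, B and C as biological replicates without saying what plants of the same letter share. The p values treat libraries as independent and are too small where they are not.

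Same-letter samples of LD-SD and SD did not deviate together (mean r = -0.03 over 21 pairs of the same genotype), so the letters were not used to pair samples. Alternatives were quantile normalization, a median-of-ratios factor, a filter at 1 RPKM or none, a pseudocount of 0.1, each letter left out, a replicate block, fits with more samples, no *G. soja*, sums over a locus, eBayes without trend, and genotypes or letters as units. Leaving out the L66 library, the L92 library at T5 or 4 LD libraries of unclear genotype, a minimum of 2 RPKM and sets chosen in other letters were added after seeing the data.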

Additional observations from a re-analysis of the deposited data

Results flagged for a closer look

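The difference between LD-SD and SD was not the same at T1, T3 and T5 in 6 of the 9 pathway genes tested. That also held for 1 of the transcripts with the largest falls. Over all transcripts, the change with time point passed the threshold in 31931 of 61240 (52.1%). The count alone does not set these genes apart. The limma F-test of the interaction with time point gave adjusted p = 5.84e-08 for *GmCOL1a*, 4.04e-08 for *GmCOL1b*, 0.00314 for *GmCOL2a* and 6.61e-05 for *GmCOL2b*. It gave adjusted p = 6.61e-06 for *GmFT5a* and 7.86e-06 for *GmPHYA2*.

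*GmPHYA2* was lower in LD-SD at T1 and T3 (log2 differences of -0.19 and -0.21) and higher at T5 (0.12). *GmCOL2b*, with few reads, was lower at T1 (-0.21) and higher at T3 (0.17) and T5 (0.27). Glyma16g32540.1 was lower in LD-SD by log2 differences of -3.40 at T1, -2.63 at T3 and -3.38 at T5 (adjusted p = 9.59e-06 for the interaction). Without the L92 library that stood apart at T5, the adjusted p was 5.79e-12 for *GmCOL1a*, 1.11e-10 for *GmCOL1b*, 3.12e-06 for *GmFT5a* and 1.27e-05 for Glyma16g32540.1, and that of *GmGIa* was 0.0323, where it was 0.82 with all libraries. LD-SD and SD libraries at T3 and T5 are other libraries than those at T1. Whether plants of a photoperiod were raised together for the 3 time points is not stated.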

How the results depend on the processing

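The count of 17497 transcripts that differed between LD-SD and SD at T1 lay between 8799 and 20534 when a letter was left out, and was 2853 with replicate letters as units and 13322 with genotypes as units. With a replicate block it was 18096 where the letter was shared by LD-SD and SD, and 20200 where it was set within each photoperiod. Without the L66 library with few mapped reads it was 19097. A pseudocount of 0.1 RPKM gave 755 transcripts at least 2-fold higher and 1254 lower, where the scale understates low transcripts less. The lower ones numbered 221 with letters as units and 250 to 614 without a letter.

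The count of 19 for the difference among genotypes was 6 with a pseudocount of 0.1, 40 without a filter, 3 with a minimum mean of 1 RPKM, 3 without *G. soja*, 5 to 10 without a letter and 197 with the replicate block within each photoperiod. At T5 the count was 13935 to 26044 without a letter and 26282 without the L92 library. Transcripts between LD and SD numbered 3415 to 7651 without a letter, those past the SD level 1286 to 3412, and those farther from SD than LD 1330 to 3202. The median position moved to 91.4% in the raised set measured in letter C and to 101% in the lowered set measured in letter B. The causes of these changes were not tested.

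*GmGIa*, not told apart in any fit, had log2 differences of -0.02 to 0.18 without a letter, with -0.0157 for letter C. *GmFT2a*, *GmFT5a* and *GmCOL2a* passed the threshold in all fits, with log2 differences of -2.61 to -2.12, -2.09 to -1.89 and -1.14 to -0.31. The other 4 called genes lost it in 16 fits between them (adjusted p 0.0532 to 0.45). Genes with few reads, such as *GmCOL2a* and *GmCOL2b*, are limited by depth.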
